A study of Mus musculus with 59 samples.

Results

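The libraries described here are the 8 RNA libraries taken 48 h after 4-hydroxytamoxifen (4OHT) or without it from mouse embryonic stem cells with a floxed allele of DGCR8 or of Drosha, out of 59 samples in the series. They were chosen by the titles and column names: the 4 columns of 48 h with 4OHT were set against the 4 columns of 48 h without it, with the cell line as a covariate. The treated group holds 2 libraries of the DGCR8 line (Rosa26:CRE, DGCR8 Flox/Flox) and 2 of the Drosha line (Drosha Flox/Flox), each after 0.5 µM 4OHT. The control group holds 2 untreated libraries of each line from the same time point. Libraries of the same lines at 24 and 96 h are used only for comparison. Both lines are 129xC57Bl6 hybrids grown on gelatin with serum and LIF, and total RNA was depleted of ribosomal RNA before sequencing. In such lines 4OHT switches on a tamoxifen-dependent Cre recombinase, which deletes floxed sequence. The labels name a Cre allele for the DGCR8 line and none for the Drosha line. Each mutation is represented by 1 line, and no unfloxed line with 4OHT was analysed here, so an effect of 4OHT itself and the loss of the gene cannot be told apart. No label calls the replicates separate cultures, so the spread behind each p-value is that of these libraries and may be technical.

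The Microprocessor is the nuclear complex of Drosha, an RNase III nuclease, and DGCR8, a hairpin-binding protein, and it cuts microRNA hairpins out of long primary transcripts. Dicer then trims the hairpins to mature microRNAs, which Argonaute and TNRC6 proteins use to repress messenger RNAs that pair with the seed near the 5′ end. Mouse embryonic stem cells express mainly the miR-290–295 cluster and the related miR-17–92 and miR-106a clusters, which are known to speed the G1/S transition. The Microprocessor also cuts hairpins in a few messenger RNAs, among them that of Dgcr8.

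The mature microRNAs of these 3 clusters are shown because most of the rising hairpin genes described below lie in these clusters. The sequences come from RefSeq (GRCm38.p6), run 5′ to 3′, and have the seed, bases 2 to 8, in capitals. The miR-17–92 and miR-106a clusters share the seed AAAGUGC in 4 microRNAs.
mmu-miR-17-5p: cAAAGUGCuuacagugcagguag
mmu-miR-20a-5p: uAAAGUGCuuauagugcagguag
mmu-miR-20b-5p: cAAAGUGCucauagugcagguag
mmu-miR-106a-5p: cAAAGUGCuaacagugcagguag

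In the miR-290–295 cluster 3 microRNAs carry the seed AAGUGCU, and others differ from it at its end.
mmu-miR-291a-3p: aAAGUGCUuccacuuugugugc
mmu-miR-294-3p: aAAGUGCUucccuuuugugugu
mmu-miR-295-3p: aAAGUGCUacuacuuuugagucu
mmu-miR-291b-3p: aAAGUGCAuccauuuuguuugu
mmu-miR-290a-3p: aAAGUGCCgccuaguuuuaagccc

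Further seeds pair members of the miR-17–92 and miR-106a clusters with one another.
mmu-miR-92a-3p: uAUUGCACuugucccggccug
mmu-miR-363-3p: aAUUGCACgguauccaucugua
mmu-miR-19a-3p: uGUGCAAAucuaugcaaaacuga
mmu-miR-19b-3p: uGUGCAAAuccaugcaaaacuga
mmu-miR-18a-5p: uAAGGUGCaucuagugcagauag
mmu-miR-18b-5p: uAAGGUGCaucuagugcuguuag

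The 3 clusters hold 33 mature microRNAs, of which 23 share their seed with at least 1 other in the clusters. The 6 letters AAGUGC lie within the seed of 9 of the 33 (27.3%), against 16 of the 1679 mature mouse microRNAs in the table (0.953%). The clusters were chosen for their rising hairpin genes, and the letters are a run within their own seeds. The higher share may follow from that choice and says nothing about the rise. Mir291a and Mir291b, whose 3p microRNAs carry these letters, were not among the risers. Some hairpins are near-identical copies, and reads from miR-19b-1 and miR-19b-2, or miR-92a-1 and miR-92a-2, may have been divided between genes in a way the deposited counts do not show. No small RNA library was analysed here, so the mature microRNAs themselves have no values.

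Library totals ran from 9906930 to 12611100 counts, and 1 read was worth 0.0753 to 0.0996 CPM, the TMM-scaled count relative to the library total, depending on the library. The mitochondrial ribosomal RNA mt-Rnr2 took 10.3 to 14.7% of counts in 4OHT libraries and 10.4 to 13.1% in controls. Markers of embryonic stem cells were present in every library: Pou5f1 stood between 679 and 1052 CPM with 4OHT and between 715 and 935 CPM in controls, and Nanog between 258 and 356 CPM with 4OHT and between 245 and 311 CPM in controls. Titles and source names conflict for 4OHT replicate 1 and control replicate 2 of each line. The titles, which match the column names, were followed.

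Drosha RNA followed the titles in the Drosha line. It had 24.6 and 26.9 CPM in the 4OHT libraries of that line, against 113 and 112 CPM in its controls. It fell by 2.12 on the log2 scale there, and the effect in the DGCR8 line minus that in the Drosha line was 2.09 ± 0.16 (log2, SE; adjusted p = 0.00081). In the DGCR8 line Drosha had 148 and 157 CPM with 4OHT, against 142 and 170 CPM in controls, so the groups overlapped there. Pooled over both lines the log2 fold change was -1.02 ± 0.31, which did not pass the test (adjusted p = 0.0644).

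Dgcr8 RNA was higher after 4OHT in both lines. It had 262 and 286 CPM in 4OHT libraries of the DGCR8 line and 382 and 359 CPM in those of the Drosha line, against 137 and 147 CPM in DGCR8 controls and 102 and 104 CPM in Drosha controls. All 4 treated libraries lay above all 4 controls, and the pooled log2 fold change was 1.40 ± 0.15 (adjusted p = 0.000203). Counts are per whole gene (chr16:18253948-18289251 in GRCm38.p6, minus strand), so the loss of a floxed exon cannot be seen in them, and Dgcr8 does not check the labels of its own line. The hairpin gene Mir1306 lies inside Dgcr8 (chr16:18284239-18284317) and had 168 reads over the 4OHT libraries, against 56 over the controls (log2 fold change 1.51 ± 0.28, adjusted p = 0.00653).

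Across all genes tested, 908 of 15136 rose (6.00%) and 388 fell (2.56%), so that 1296 (8.56%) passed the threshold of an adjusted p of 0.05 in edgeR's quasi-likelihood test. Most changes were small. The median log2 fold change was 0.54 among the genes that rose and -0.42 among those that fell, against -0.01 over all genes, and 130 of the risers but 10 of the fallers passed 2-fold. In each line both 4OHT libraries lay above both controls for 874 of the risers and below both for 379 of the fallers, against 11.7% above and 9.49% below over all genes tested; over all genes, 4.02% had all 4 treated libraries above all 4 controls and 3.22% below. The count depended on single libraries: it was 543 without DGCR8 4OHT replicate 2, 605 without DGCR8 control replicate 1, 714 without Drosha control replicate 1, 741 without DGCR8 4OHT replicate 1 and 803 without Drosha control replicate 2.

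Among rising genes with a mean log2 CPM of 2 or more, those with the largest changes were mainly microRNA primary transcripts and hairpin genes. Of the 12 named by size of change, 10 were Dgcr8, microRNA hairpin genes or transcripts that hold a hairpin. The other two were Taf9b, a relative of the TFIID subunit TAF9, and Serpinb9b, a serine protease inhibitor. Mir17hg, the host transcript of miR-17–92 (chr14:115044390-115046728), had 324 and 326 CPM in 4OHT libraries of the DGCR8 line and 174 and 237 CPM in those of the Drosha line, against 86.8 and 74.5 CPM in DGCR8 controls and 54.2 and 51.7 CPM in Drosha controls. No treated library came near a control, and the log2 fold change of 1.98 ± 0.10 had the smallest p of all genes (adjusted p = 8.24e-07). Mir22hg, the host of miR-22, had 14.3 and 12.7 CPM with 4OHT in the DGCR8 line and 22.6 and 29.7 CPM in the Drosha line, against 5.49 and 2.73 CPM in DGCR8 controls and 3.20 and 2.99 CPM in Drosha controls (log2 fold change 2.41 ± 0.26, adjusted p = 0.000237). E130102H24Rik (chr4:101346524-101356248), a non-coding transcript that holds the hairpin of miR-101a, had 18.5 and 17.7 CPM with 4OHT in the DGCR8 line and 11.8 and 13.7 CPM in the Drosha line, against 3.08 and 3.80 CPM in DGCR8 controls and 1.72 and 2.29 CPM in Drosha controls (2.52 ± 0.15, adjusted p = 3.12e-06). C130071C03Rik, which holds a miR-9 hairpin, had 3.14 and 4.06 CPM with 4OHT in the DGCR8 line and 10.1 and 11.2 CPM in the Drosha line, against 1.54 and 1.07 CPM in DGCR8 controls and 2.26 and 2.59 CPM in Drosha controls (1.88 ± 0.21, adjusted p = 0.000237). In all 4 transcripts the 4OHT libraries stood above every control, although the lines differed in level.

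**Figure D1:**
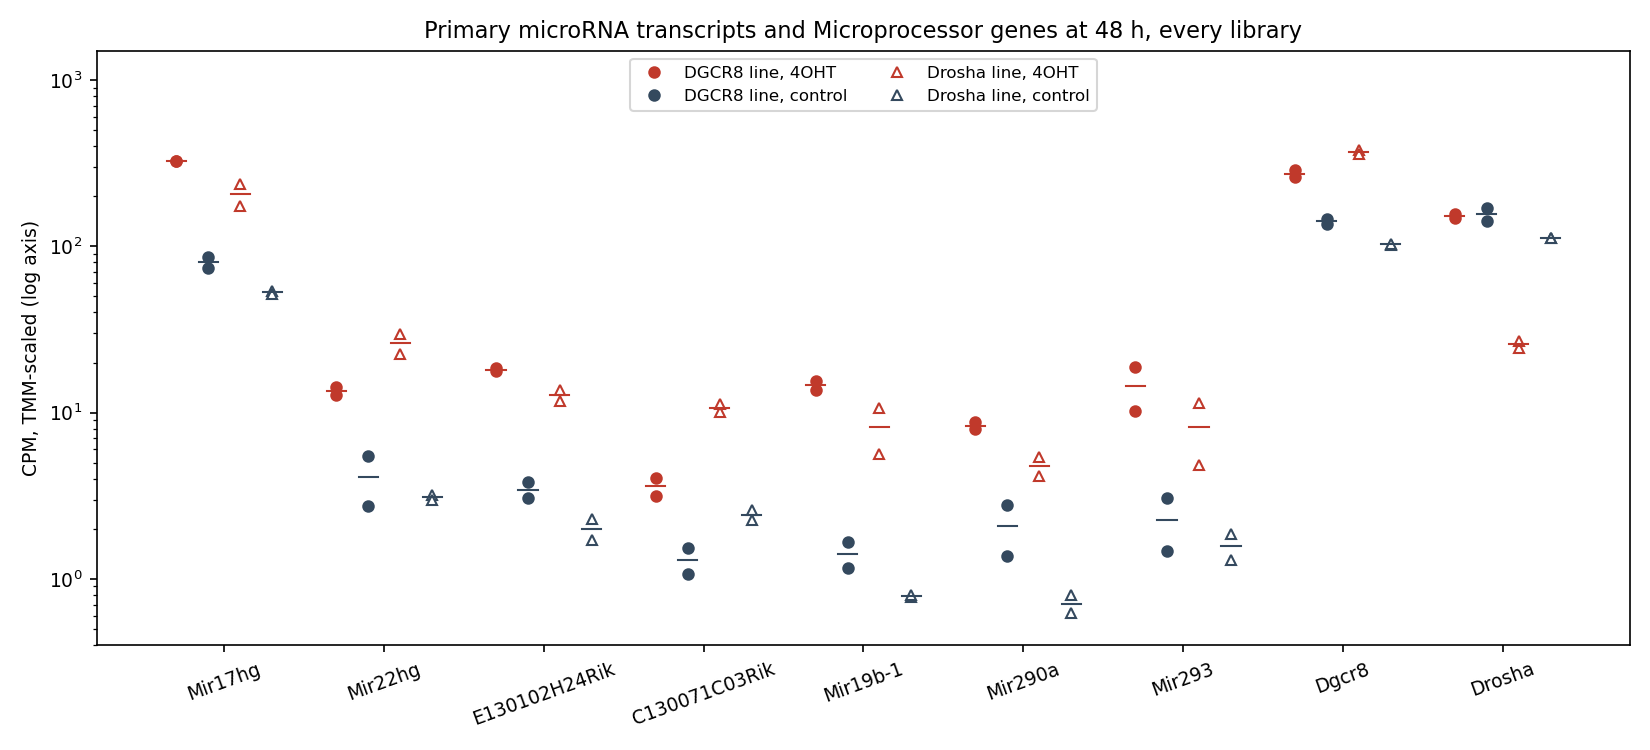
CPM (TMM-scaled, log axis) of 4 primary transcripts, 3 hairpin genes, Dgcr8 and Drosha in each of the 8 libraries at 48 h; filled circles are the DGCR8 line, open triangles the Drosha line, red 4OHT, dark blue control, and short lines the means of 2 libraries. In each line the 4OHT points lie above the controls for all but Drosha, and Drosha is low in the 4OHT libraries of the Drosha line alone.

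Over the 15 tested non-coding transcripts that hold an annotated hairpin on the same strand, 7 rose (46.7%), against 6.12% of the 14120 tested genes with RefSeq coordinates other than hairpin genes. Protein-coding genes that hold one in the same way numbered 414 tested, of which 39 rose (9.42%) and 5 fell. Genes with a hairpin only on the opposite strand numbered 49, of which 7 rose (14.3%), and among 70 genes whose strand the table does not give 7 rose. A list of 14 tested transcripts of microRNA loci, non-coding hosts except for the protein-coding Rtl1, had 7 that rose and a median log2 fold change of 0.36. Beside Mir17hg and Mir22hg, these were Mir124a-1hg (0.98 ± 0.13), the host of a miR-124 hairpin, Nespas (0.66 ± 0.15), antisense to the imprinted Gnas locus, Dleu2 (0.52 ± 0.12), the host of miR-15a and miR-16-1, and Mirg and Rtl1 of the imprinted Dlk1-Dio3 region. Mirg, the host of many microRNAs of that region, had 108 and 107 CPM in 4OHT libraries of the Drosha line, against 42.6 and 49.2 CPM in its controls. In the DGCR8 line Mirg had 0.190 and 0.396 CPM with 4OHT, against 0 and 0.0974 CPM in controls, and Meg3 and Rian of the same region were likewise near 0, so the region's values come from the Drosha line. The counting strand was not given in the sources used here, so reads of Rtl1 and of the hairpins antisense to it, or of Nespas and Gnas, cannot be told apart. Without Drosha control replicate 1 the list had 4 calls, since Rtl1, Nespas and Dleu2 missed the threshold. With any 1 library left out, their highest adjusted p was 0.0723, 0.0593 and 0.0972, in that order.

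Of 24 tested protein-coding hosts in a second list, 5 rose, against 6.00% of all genes, and the median of the list was 0.07. The risers were Pank3 (log2 fold change 0.46), Pank1 (0.43), both pantothenate kinases that hold miR-103 or miR-107 hairpins, Ppargc1b (0.86), a transcriptional coactivator that holds miR-378, Clcn5 (0.34), a chloride transporter, and Mcm7 (0.29), a helicase subunit that holds miR-106b–25. Leaving out DGCR8 4OHT replicate 2 left Pank3 as 1 call of 5, and leaving out DGCR8 control replicate 1 or Drosha control replicate 2 left 3. The highest adjusted p of the other four in these fits was 0.0888, for Mcm7.

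The hairpin genes themselves were short and thinly covered. Of 1057 in the table, 517 had no read in any of the 8 libraries and 69 passed the filter on low counts, of which 19 rose and 1 fell (Mir5114, -0.53 ± 0.12), with a median log2 fold change of 0.21. Mir5114 lost its call without DGCR8 control replicate 1, DGCR8 4OHT replicate 2, either Drosha control replicate or Drosha 4OHT replicate 2 (adjusted p up to 0.0751). A hairpin near 0 in controls could pass the filter through its 4OHT libraries, so that share says little about hairpins in general. All 6 hairpin genes of miR-17–92 (chr14:115043671-115044506) rose, with a median of 2.94. Mir19b-1 had 15.6 and 13.7 CPM with 4OHT in the DGCR8 line and 5.65 and 10.7 CPM in the Drosha line, against 1.15 and 1.66 CPM in DGCR8 controls and 0.780 and 0.797 CPM in Drosha controls (log2 fold change 3.36 ± 0.24, adjusted p = 2.47e-05). For the thinner genes the reads summed over 4 libraries show the size better: Mir17 had 174 reads with 4OHT and 8 in controls, Mir20a 108 and 9, Mir19a 251 and 47, and Mir18 83 and 14.

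In the miR-290–295 cluster (chr7:3218626-3220841) 5 of 7 hairpin genes rose, and the median was 2.29. Mir290a had 7.99 and 8.72 CPM with 4OHT in the DGCR8 line and 5.42 and 4.16 CPM in the Drosha line, against 2.79 and 1.36 CPM in DGCR8 controls and 0.624 and 0.797 CPM in Drosha controls (2.29 ± 0.25, adjusted p = 0.00024). Mir293 had 18.8 and 10.2 CPM with 4OHT in the DGCR8 line and 4.82 and 11.5 CPM in the Drosha line, against 3.08 and 1.46 CPM in DGCR8 controls and 1.87 and 1.30 CPM in Drosha controls (2.51 ± 0.33, adjusted p = 0.00075). The cluster was not uniform. Mir291a had 276 reads over the 4OHT libraries and 262 over the controls (log2 fold change 0.02), and Mir291b had 147 and 85 reads and missed the threshold (adjusted p = 0.0885). Mir292 lost its call without DGCR8 control replicate 1, either DGCR8 4OHT replicate, Drosha control replicate 2 or Drosha 4OHT replicate 2 (adjusted p up to 0.130).

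In the miR-106a cluster (chrX:52741693-52742567) 3 of 5 tested hairpin genes rose, and the median was 2.36. Mir20b had 54 reads with 4OHT and 1 in controls, and Mir106a had 40 and 3. The third riser of the cluster was Mir92-2. The 1 called hairpin of the Dlk1-Dio3 region, Mir127, had 87 reads with 4OHT and 3 in controls, all in the Drosha line. The other risers outside the clusters were Mir1306, Mir669c (51 and 4 reads), Mir467c and Mir147; Mir467c lost its call without either Drosha control replicate (adjusted p up to 0.098) and Mir147 without DGCR8 4OHT replicate 1, either Drosha control replicate or Drosha 4OHT replicate 2 (up to 0.104). Mir16-1, whose host Dleu2 rose, had 53 reads with 4OHT and 54 in controls (log2 fold change -0.01) and was not called. With DESeq2, 25 of the 69 had an adjusted p and 8 passed.

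Among the factors of the microRNA pathway, 3 of 18 tested genes rose, against 6.00% of all genes, and the list's median was 0.04. Tnrc6a, a scaffold that recruits deadenylases to Argonaute, had 232 and 279 CPM with 4OHT in the DGCR8 line and 267 and 233 CPM in the Drosha line, against 110 and 136 CPM in DGCR8 controls and 127 and 133 CPM in Drosha controls (log2 fold change 1.00 ± 0.09, adjusted p = 7.65e-05). Ago1, an Argonaute, had 142 and 168 CPM with 4OHT in the DGCR8 line and 158 and 131 CPM in the Drosha line, against 70.4 and 80.0 CPM in DGCR8 controls and 75.2 and 82.9 CPM in Drosha controls (0.96 ± 0.09, adjusted p = 0.000118). Both genes were about 2-fold higher in each line, with no overlap between groups. Tnrc6b rose by 0.60 ± 0.10 (adjusted p = 0.00381). Ago2, the slicing Argonaute, stood at 0.20, and Dicer1, the second nuclease of the pathway, at 0.04; neither passed the test. The 3 calls held with any 1 of the 8 libraries left out.

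The effects of the 2 lines were alike in direction among called genes, and of the 1296 pooled calls 1295 had the same sign in both. The exception was Mir127, which had no read in the DGCR8 line. Since the pooled test favours genes that move together, that count follows in part from the rule. Over 11254 genes the log2 fold changes of the lines had a Pearson correlation of 0.54; each line's controls are its own, and the libraries share the preparation. Fewer genes passed in each line alone: 395 rose (2.61%) and 137 fell (0.905%; 3.51% in either direction) in the DGCR8 line, and 149 rose (0.984%) and 7 fell (0.0462%; 1.03% in either direction) in the Drosha line, so that 789 of the pooled calls passed in neither. The difference between the lines passed the test for Drosha alone (1 of 15136, 0.00661%; 797 genes at an unadjusted p under 0.05; DESeq2 called 3), and without DGCR8 control replicate 1 it passed for 17 genes. Dgcr8 rose by 0.95 in the DGCR8 line and 1.85 in the Drosha line, and that difference did not pass (adjusted p = 0.304).

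**Figure D2:**
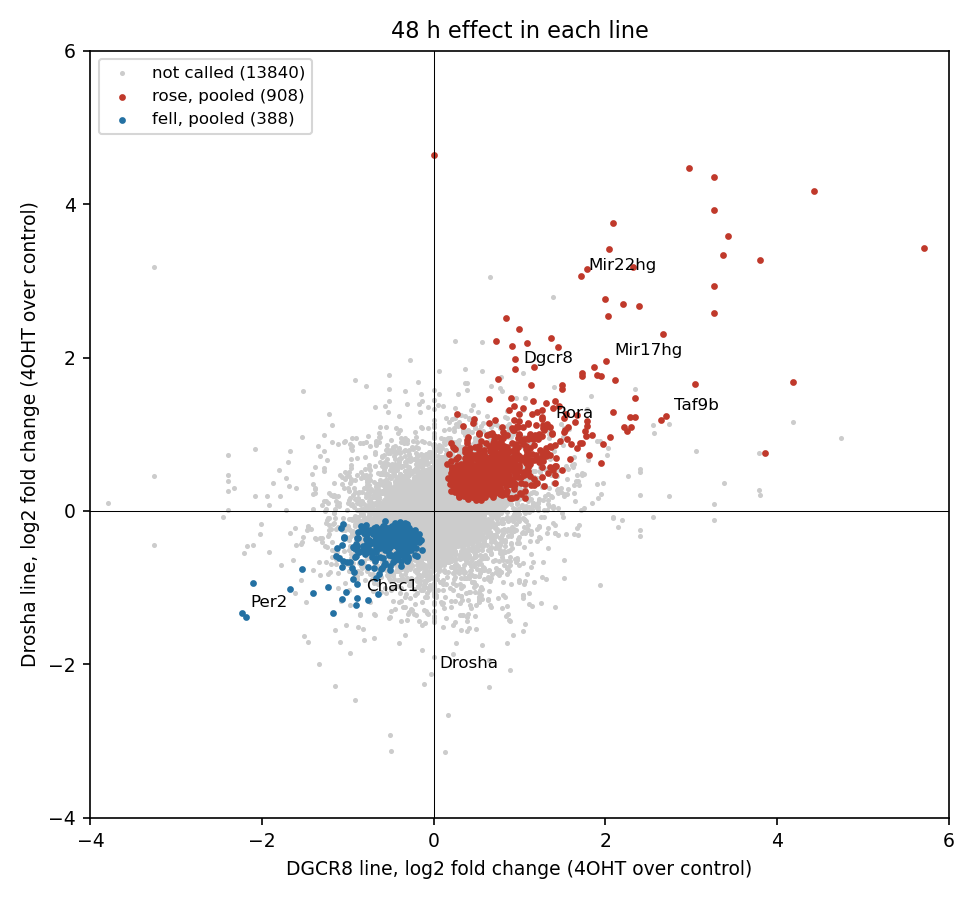
Log2 fold change at 48 h (4OHT over control) of each tested gene in the DGCR8 line (x axis) and in the Drosha line (y axis); red genes rose and blue genes fell in the pooled test, and 6 genes, 3 of them called, lie outside the axes of -4 to 6. Called genes other than Mir127 have the same sign in both lines, Mir22hg and Mir17hg stand far from 0 in both lines, and Drosha is low in the Drosha line alone.

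Of 19 tested genes reported as targets of the miR-290 family, 10 rose, none fell and the median was 0.33. Over all genes 6.00% rose and the median was -0.01. This list, like the others, was chosen with earlier results of these data known, so its share is a description only. Cdkn1a, the p21 inhibitor of G1/S kinases, had 13.3 and 9.51 CPM with 4OHT in the DGCR8 line and 20.6 and 22.0 CPM in the Drosha line, against 5.87 and 4.97 CPM in DGCR8 controls and 11.9 and 12.6 CPM in Drosha controls (0.92 ± 0.13, adjusted p = 0.00159). In each line both treated libraries were higher, but the lines' levels overlapped between groups. Ei24, a p53-induced membrane protein, had 110 and 116 CPM with 4OHT in the DGCR8 line and 129 and 124 CPM in the Drosha line, against 76.1 and 68.7 CPM in DGCR8 controls and 89.9 and 82.3 CPM in Drosha controls (0.60 ± 0.07, adjusted p = 0.000472). Further risers were Tgfbr2, a TGF-β receptor (1.01 ± 0.17), Lefty1, a Nodal antagonist (1.00 ± 0.18), Dazap2 (0.70 ± 0.12), Rbl2, an Rb-family repressor of E2F genes (0.54), Lats2, a Hippo kinase (0.44), Akt1 (0.34), and the chromatin proteins Arid4b and Mbd2 (0.33 each). Lefty2 (-0.00), Rela (0.02) and Casp2 (0.15) did not pass. The count was 5 without DGCR8 4OHT replicate 2 and 6 without DGCR8 control replicate 1 or Drosha control replicate 1.

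Of 13 tested let-7 targets, genes bound by a family that embryonic stem cells hold low, 2 rose and 1 fell. The median was -0.06, and over all genes 6.00% rose and 2.56% fell. Ccnd1 (0.49 ± 0.10) and Ccnd2 (0.51 ± 0.13), D-type cyclins, rose, and Trim71, a stem cell ubiquitin ligase (-0.37 ± 0.09), fell. Without DGCR8 control replicate 1 or DGCR8 4OHT replicate 2 the list had 1 call. Ccnd2 reached an adjusted p of 0.107 and Trim71 one of 0.0870 with single libraries left out.

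The p53 target list rose in 12 of 25 tested members, with 1 that fell, against 6.00% and 2.56% of all genes. Its median was 0.30, and it had 12 or 13 calls with any 1 library left out. Ccng1, cyclin G1, had 350 and 331 CPM with 4OHT in the DGCR8 line and 609 and 689 CPM in the Drosha line, against 192 and 186 CPM in DGCR8 controls and 399 and 379 CPM in Drosha controls (0.79 ± 0.07, adjusted p = 7.65e-05). Btg2, an antiproliferative protein, had 46.7 and 48.1 CPM with 4OHT in the DGCR8 line and 107 and 100 CPM in the Drosha line, against 22.9 and 27.6 CPM in DGCR8 controls and 52.0 and 45.9 CPM in Drosha controls (1.00 ± 0.09, adjusted p = 7.65e-05). Levels of both genes were higher in the Drosha line, with and without 4OHT. The other risers were Perp (0.77), Plk2 (0.74), Trp53inp1 (0.71), Phlda3 (0.70), Eda2r (0.58), the repair genes Polk (0.53) and Ercc5 (0.39), Zmat3 (0.24), and Cdkn1a and Ei24, which the miR-290 list also holds. Gadd45a fell by 0.45. Mdm2 (0.27), the feedback inhibitor of p53, and the death genes Bax (0.08), Bbc3 (0.22) and Pmaip1 (-0.06) did not pass.

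Of 23 tested G1/S genes, 5 rose and 1 fell, against 6.00% and 2.56% of all genes, and the median was -0.03. Rb1, the retinoblastoma repressor of E2F genes, had 28.1 and 25.0 CPM with 4OHT in the DGCR8 line and 27.2 and 32.0 CPM in the Drosha line, against 13.9 and 13.7 CPM in DGCR8 controls and 15.7 and 17.7 CPM in Drosha controls (0.88 ± 0.10, adjusted p = 0.000339). The other calls were Ccnd1 and Ccnd2, Ccne2 (0.53), Cdkn1c, the p57 inhibitor (0.56 ± 0.14), and E2f2, which fell by 0.47. Cdk2 (0.00), Ccne1 (-0.07) and the Mcm2 helicase subunit (-0.10) were close to 0. This list rested on few libraries: it had 2 calls without DGCR8 control replicate 1 or DGCR8 4OHT replicate 2, and 3 without DGCR8 control replicate 2, DGCR8 4OHT replicate 1, Drosha control replicate 1 or Drosha 4OHT replicate 2, and Cdkn1c reached an adjusted p of 0.115.

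**Figure D3:**
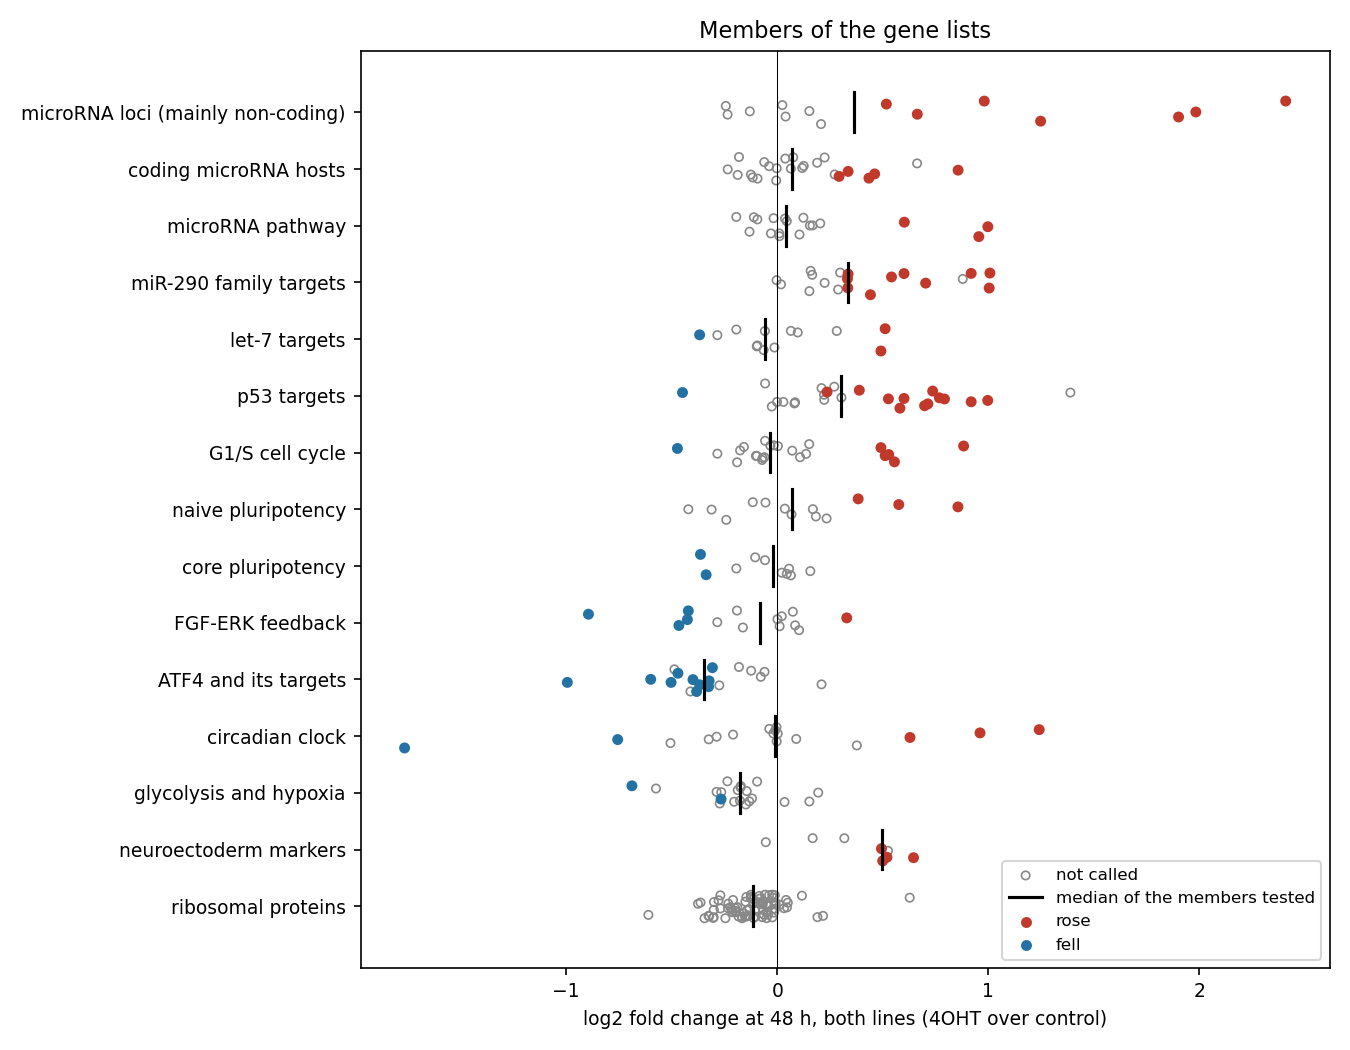
Log2 fold change at 48 h (4OHT over control, both lines) of each tested member of 15 gene lists; red members rose, blue members fell, open members were not called, and black bars are list medians. The transcripts of microRNA loci reach furthest to the right, the miR-290 family and p53 lists have medians of 0.33 and 0.30, and the list of ATF4 and its targets has a median of -0.35.

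The list with the most falling genes was that of ATF4 and its targets, the amino acid and stress genes of the integrated stress response. Of 18 tested members 17 had a negative log2 fold change, 10 fell, and the median was -0.35. Over all genes 2.56% fell, with a median of -0.01. The list was chosen with earlier results of these data known, so this is a description only. Chac1, which degrades glutathione, had 9.89 and 9.02 CPM with 4OHT in the DGCR8 line and 4.97 and 3.44 CPM in the Drosha line, against 19.5 and 15.5 CPM in DGCR8 controls and 9.75 and 8.77 CPM in Drosha controls (-0.99 ± 0.15, adjusted p = 0.00159). Slc7a5, an amino acid transporter, had 125 and 126 CPM with 4OHT in the DGCR8 line and 158 and 135 CPM in the Drosha line, against 178 and 190 CPM in DGCR8 controls and 200 and 203 CPM in Drosha controls (-0.50 ± 0.07, adjusted p = 0.00151). All treated libraries lay below all controls for Slc7a5, while for Chac1 this held within each line. Trib3, a pseudokinase (-0.60 ± 0.10), Nupr1 (-0.47), Mthfd2 (-0.40), Slc3a2, the partner of Slc7a5 (-0.38 ± 0.08), Aldh18a1 (-0.37), Atf4 itself (-0.33), Psat1 (-0.32) and Asns, asparagine synthetase (-0.31), also fell. Ddit3 (-0.49), Cebpb (-0.41) and Sesn2 (0.21) did not pass. The list had 4 calls without DGCR8 4OHT replicate 2 or Drosha control replicate 1, 5 without Drosha 4OHT replicate 2 and 6 without Drosha control replicate 2, and Slc3a2 missed the threshold without DGCR8 4OHT replicate 2 (adjusted p = 0.0504).

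The promoters of 2 of these genes are shown because they hold the letters TGATGNAA, where N is any base, a known binding element of ATF4 with C/EBP proteins. RefSeq (GRCm38.p6) windows of 250 bases before to 50 after the start were searched on both strands, the reverse complement being TTNCATCA. Chac1 lies at chr2:119350992-119351291 on the plus strand with the match on the minus strand at -193 from the start, and Asns at chr6:7693160-7693459 on the minus strand with the match at -23. Capitals mark the match.
Chac1: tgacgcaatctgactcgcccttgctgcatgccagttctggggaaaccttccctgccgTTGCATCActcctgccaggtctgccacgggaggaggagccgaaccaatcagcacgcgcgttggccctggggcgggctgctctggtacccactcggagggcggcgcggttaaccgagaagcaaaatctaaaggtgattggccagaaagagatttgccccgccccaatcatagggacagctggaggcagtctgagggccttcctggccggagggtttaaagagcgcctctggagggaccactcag
Asns: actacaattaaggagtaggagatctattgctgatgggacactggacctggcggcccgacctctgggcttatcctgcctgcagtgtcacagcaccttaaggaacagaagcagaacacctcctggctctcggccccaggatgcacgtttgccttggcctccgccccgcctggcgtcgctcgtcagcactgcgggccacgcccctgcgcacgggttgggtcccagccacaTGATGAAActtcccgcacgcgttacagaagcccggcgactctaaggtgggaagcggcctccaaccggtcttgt
The motif was in 5 of 17 list members with a promoter (29.4%), namely Chac1, Trib3, Slc7a11, Asns and Nupr1, and in 4 of the 9 that fell (44.4%), against 3.97% of all 32851 promoters and 2.67% of the 10317 tested genes with one. The list was drawn up as ATF4 and its targets, so its higher share may follow from that choice and says nothing about the fall. A match describes letters in this window and is not evidence of binding here.

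Feedback genes of the FGF-ERK pathway, which ERK signalling is known to induce, included 4 that fell and 1 that rose among 14 tested. Their median was -0.08, and over all genes 2.56% fell and 6.00% rose. Spry1, an inhibitor of receptor tyrosine kinase signalling, had 9.22 and 7.93 CPM with 4OHT in the DGCR8 line and 9.86 and 9.13 CPM in the Drosha line, against 19.1 and 17.0 CPM in DGCR8 controls and 16.5 and 14.9 CPM in Drosha controls (-0.89 ± 0.12, adjusted p = 0.000981). Dusp6, an ERK phosphatase (-0.47 ± 0.08), Spry2 (-0.42 ± 0.09) and Etv4, an ETS factor (-0.43 ± 0.10), fell as well, and Il17rd, another inhibitor of the pathway, rose by 0.33. Fgf4 (0.07) and Fgfr1 (0.10), the ligand and its receptor, did not pass. The list had 2 calls without DGCR8 control replicate 1 and 3 without DGCR8 4OHT replicate 1 or 2. Spry2 missed the threshold without DGCR8 control replicate 1 (adjusted p = 0.0588), and Etv4 without any of these 3 libraries (up to 0.0891).

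Genes of the circadian clock moved in both directions: 3 of 17 tested rose and 2 fell, against 6.00% and 2.56% of all genes. Their median was -0.01. Clock, an activator of the cycle, had 98.9 and 110 CPM with 4OHT in the DGCR8 line and 66.3 and 64.9 CPM in the Drosha line, against 41.2 and 50.7 CPM in DGCR8 controls and 38.1 and 41.0 CPM in Drosha controls (0.96 ± 0.11, adjusted p = 0.000292). Cry1, a repressor of the cycle, had 39.1 and 39.0 CPM with 4OHT in the DGCR8 line and 39.1 and 36.2 CPM in the Drosha line, against 73.2 and 73.8 CPM in DGCR8 controls and 54.7 and 59.4 CPM in Drosha controls (-0.76 ± 0.09, adjusted p = 0.000376). For both genes all treated libraries lay on one side of all controls. Per2, the other repressor that fell, was low everywhere, with 0.475 and 0.793 CPM with 4OHT in the DGCR8 line and 0.828 and 0.723 CPM in the Drosha line, against 3.27 and 2.73 CPM in DGCR8 controls and 1.79 and 2.19 CPM in Drosha controls (-1.77 ± 0.30, adjusted p = 0.00377). The nuclear receptors Rora (1.24 ± 0.20) and Nr1d2 (0.63) rose. Arntl, the partner of Clock, stood at -0.00 and Per1 at -0.02.

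Among pluripotency factors 23.1% of the naive list rose, and 20% of the core and 16.7% of the formative and primed lists fell. Over all genes 6.00% rose and 2.56% fell. No naive factor fell, and no core, formative or primed one rose. Of 13 naive factors 3 rose, with a list median of 0.07: Klf2 (0.86 ± 0.11, adjusted p = 0.00066), Prdm14 (0.58 ± 0.12) and Tfcp2l1 (0.38 ± 0.07). Klf2 had 121 and 113 CPM with 4OHT in the DGCR8 line and 61.4 and 69.3 CPM in the Drosha line, against 62.4 and 48.7 CPM in DGCR8 controls and 42.2 and 42.2 CPM in Drosha controls. Of 10 core genes Tdgf1, the Nodal co-receptor (-0.34 ± 0.08), and Utf1 (-0.36 ± 0.10) fell, while Pou5f1 (0.02) and Sox2 (0.05) did not pass. Of 12 formative and primed genes Dnmt3b (-0.35 ± 0.09) and Tcf15 (-0.38 ± 0.11) fell. These calls were near the threshold: Tdgf1 reached an adjusted p of 0.0712, Utf1 of 0.138, Dnmt3b of 0.112, Tcf15 of 0.162 and Prdm14 of 0.0555 with single libraries left out, and without DGCR8 control replicate 1 neither the core nor the formative list kept a call. The core list also lost both calls without DGCR8 4OHT replicate 2 or Drosha control replicate 1, and the formative list without DGCR8 4OHT replicate 1, either Drosha control replicate or Drosha 4OHT replicate 2. The core list had 1 call without Drosha control replicate 2 or Drosha 4OHT replicate 2, and the formative list 1 without DGCR8 control replicate 2, DGCR8 4OHT replicate 2 or Drosha 4OHT replicate 1.

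In the Nodal and TGF-β list 4 of 18 tested genes rose and 2 fell, against 6.00% and 2.56% of all genes. The list median was 0.14. Beside Tgfbr2 and Lefty1, the receptor Tgfbr1 (0.51 ± 0.09) and the ligand Nodal (0.51) rose, and beside Tdgf1 the ligand Bmp4 fell by 0.40. Tgfbr2 was low in both lines, with 3.61 and 3.47 CPM with 4OHT in the DGCR8 line and 10.5 and 8.05 CPM in the Drosha line, against 1.64 and 1.66 CPM in DGCR8 controls and 4.37 and 5.28 CPM in Drosha controls. Lefty1 had 71.7 and 57.2 CPM with 4OHT in the DGCR8 line and 47.5 and 70.2 CPM in the Drosha line, against 32.8 and 19.2 CPM in DGCR8 controls and 39.1 and 32.5 CPM in Drosha controls, with no overlap.

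Markers of neuroectoderm rose in 4 of 8 tested members, against 6.00% of all genes, with a median of 0.50. The 4 were Map2 (0.65 ± 0.11) and Tubb3 (0.50 ± 0.08), proteins of the neuronal cytoskeleton, Sox1 (0.52 ± 0.11) and Ncam1 (0.49 ± 0.13). Tubb3 had 50.0 and 47.3 CPM with 4OHT in the DGCR8 line and 58.1 and 53.2 CPM in the Drosha line, against 32.7 and 35.0 CPM in DGCR8 controls and 40.4 and 39.6 CPM in Drosha controls. Summed levels in this paragraph are CPM without TMM scaling. For this list they ran from 162 to 305 CPM with 4OHT and from 113 to 238 CPM in controls. Neurog2, another marker counted as neuroectoderm, was at 0 in all 8 libraries. More cells of a type and more RNA per cell cannot be told apart in these libraries, and the part of these markers in the other results was not tested. Among 15 endoderm markers Pdgfra rose (0.59 ± 0.13), and among 6 mesoderm markers Kdr rose (1.43 ± 0.28). Summed levels ran from 1078 to 2023 CPM with 4OHT and 898 to 1659 CPM in controls for endoderm, and from 4.54 to 36.7 CPM with 4OHT and 3.79 to 33.3 CPM in controls for mesoderm. The 6 trophectoderm and 5 fibroblast markers had no call by edgeR or DESeq2, with 1 member of each at an unadjusted p under 0.05. The neuroectoderm list had 2 calls without DGCR8 control replicate 1 or DGCR8 4OHT replicate 2, when Sox1 reached an adjusted p of 0.0644 and Ncam1 one of 0.106. The endoderm list had 5 calls without DGCR8 control replicate 2 and lost Pdgfra without Drosha control replicate 1 (adjusted p = 0.0505), and the mesoderm list had 2 calls without DGCR8 control replicate 2.

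Among falling genes with a mean log2 CPM of 2 or more, those with the largest changes beside Chac1, Spry1 and Cry1 were in none of the gene lists. The 10 that passed 2-fold, Per2 among them, all had a lower mean. Bok, a Bcl-2 family protein, had 4.18 and 3.67 CPM with 4OHT in the DGCR8 line and 3.01 and 3.71 CPM in the Drosha line, against 7.79 and 6.82 CPM in DGCR8 controls and 5.54 and 7.47 CPM in Drosha controls (-0.92 ± 0.16, adjusted p = 0.00501). Jph1, a junctophilin, had 7.70 and 10.0 CPM with 4OHT in the DGCR8 line and 13.9 and 12.7 CPM in the Drosha line, against 16.2 and 21.8 CPM in DGCR8 controls and 20.3 and 20.4 CPM in Drosha controls (-0.84 ± 0.14, adjusted p = 0.0039). Elac1, a nuclease of the tRNA 3′ end family, fell by 0.81, Selenoo, a selenoprotein, by 0.83, St3gal4, a sialyltransferase, by 0.85, and Cabp1, a calcium-binding protein, by 0.75. Ccdc106 (-0.91), Trank1 (-0.83) and Fam220a (-0.75) complete the 12. Calls of Ccdc106 (adjusted p up to 0.0895), St3gal4 (up to 0.0846), Selenoo (0.0702, without DGCR8 4OHT replicate 2) and Trank1 (0.0524, without DGCR8 4OHT replicate 1) depended on single libraries. For the first pair these included DGCR8 4OHT replicates 1 and 2, Drosha control replicate 2 and Drosha 4OHT replicate 2, and for Ccdc106 also DGCR8 control replicate 1. Most called genes, 828 that rose and 357 that fell, were in none of the lists.

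The effect at 48 h was set beside those at 24 h and 96 h, each against its own controls. The pooled test called 113 genes at 24 h (98 rose, 0.638% of 15366, and 15 fell, 0.0976%) and 1830 at 96 h, where the Drosha line has 1 4OHT library (1160 rose, 7.34% of 15812, and 670 fell, 4.24%). Of the 908 genes that rose at 48 h, 84 were among the 98 that rose at 24 h and 633 among the 1160 that rose at 96 h. Of the 388 that fell at 48 h, 2 were among the 15 that fell at 24 h and 217 among the 670 that fell at 96 h. The 48 h risers had median log2 fold changes of 0.21, 0.54 and 0.77 at 24, 48 and 96 h, and the fallers of -0.16, -0.42 and -0.60; they were chosen at 48 h, so the choice may have enlarged the 48 h values. Across 11254 genes the Pearson correlation of effects was 0.54 between 48 and 24 h and 0.77 between 48 and 96 h.

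At 96 h 2 of the 3 4OHT libraries stood apart in their share of mt-Rnr2. It was 27.1% in DGCR8 4OHT replicate 1 and 21.3% in the Drosha 4OHT library, against 9.55% in DGCR8 4OHT replicate 2 and 11.7 to 15.4% in controls, and the mitochondrial genes had a median log2 fold change of 0.89. Without DGCR8 4OHT replicate 1 each line had 1 4OHT library at 96 h. Without both of these libraries the DGCR8 line alone had 1. The spread in those 2 fits came from the controls alone, so their counts of calls cannot be compared with that of the main fit. Their medians at 96 h were 0.77 and 0.88 for the 48 h risers, in that order, and -0.59 in each case for the fallers. Both alternatives were chosen after the data were seen, and the part of the mitochondrial share in the 96 h values was not tested.

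Primary transcripts were not uniform over the times. The list of transcripts of microRNA loci had medians of 1.16, 0.36 and 0.36 at 24, 48 and 96 h, over members with a value. The hairpin gene Mir127 stood at 2.09, 4.53 and 3.34. Changes at 24 h were close to those at 48 h for 4 genes described above. Mir17hg stood at 2.18, 1.98 and 2.00 (log2) at 24, 48 and 96 h, Mir22hg at 2.35, 2.41 and 2.26, Mir19b-1 at 3.73, 3.36 and 3.22, and Dgcr8 at 1.55, 1.40 and 1.20. The difference between 48 and 24 h did not pass for any of these 4 (smallest adjusted p = 0.513, for Dgcr8), and for Mir17hg it was -0.21 ± 0.15. A second set had smaller effects at 24 h. The test of the 48 h effect against the 24 h effect called 28 of 15744 genes (0.178%), all with the larger effect at 48 h. All were among the 48 h risers. With the replicate number as a further term in the fit, 0 genes passed, so all 28 calls were lost. By edgeR none was called with a smaller effect at 48 h (1692 genes had an unadjusted p under 0.05 in either direction), while DESeq2 called 75 with a larger and 11 with a smaller effect at 48 h.

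Several p53 targets were among the 28: Btg2 (0.18, 1.00 and 1.33 at 24, 48 and 96 h; difference 0.81 ± 0.10), Ccng1 (0.14, 0.79 and 1.23; 0.65 ± 0.09), Perp (0.09, 0.77 and 1.20; 0.70 ± 0.10), Cdkn1a (-0.06, 0.92 and 1.21; 0.99 ± 0.17), Phlda3 (difference 0.87) and Trp53inp1 (0.60). The smallest p belonged to 9530068E07Rik, with 77.5 and 74.4 CPM with 4OHT in the DGCR8 line and 59.1 and 64.8 CPM in the Drosha line at 48 h, against 22.7 and 22.1 CPM in DGCR8 controls and 29.4 and 30.7 CPM in Drosha controls. Its log2 fold change was 0.48, 1.39 and 1.78 at 24, 48 and 96 h. Rragd, a Rag GTPase that carries amino acid signals to mTORC1, had 84.5 and 84.5 CPM with 4OHT in the DGCR8 line and 104 and 104 CPM in the Drosha line, against 37.5 and 37.4 CPM in DGCR8 controls and 62.4 and 69.2 CPM in Drosha controls (0.17, 0.91 and 1.22 over the times). Hipk3, a kinase (0.38, 1.04 and 1.59), Itgav, an integrin subunit (0.27, 0.82 and 1.37), and Tmem123 (0.19, 0.92 and 1.64) had the same order. The count of 28 was 6 to 28 with any 1 of 16 libraries left out, lowest without Drosha 24 h 4OHT replicate 1 or Drosha 48 h control replicate 2. It fell below 19 without 13 of the 16, the exceptions being DGCR8 24 h control replicate 1, DGCR8 48 h control replicate 1 and Drosha 48 h 4OHT replicate 2.

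**Figure D4:**
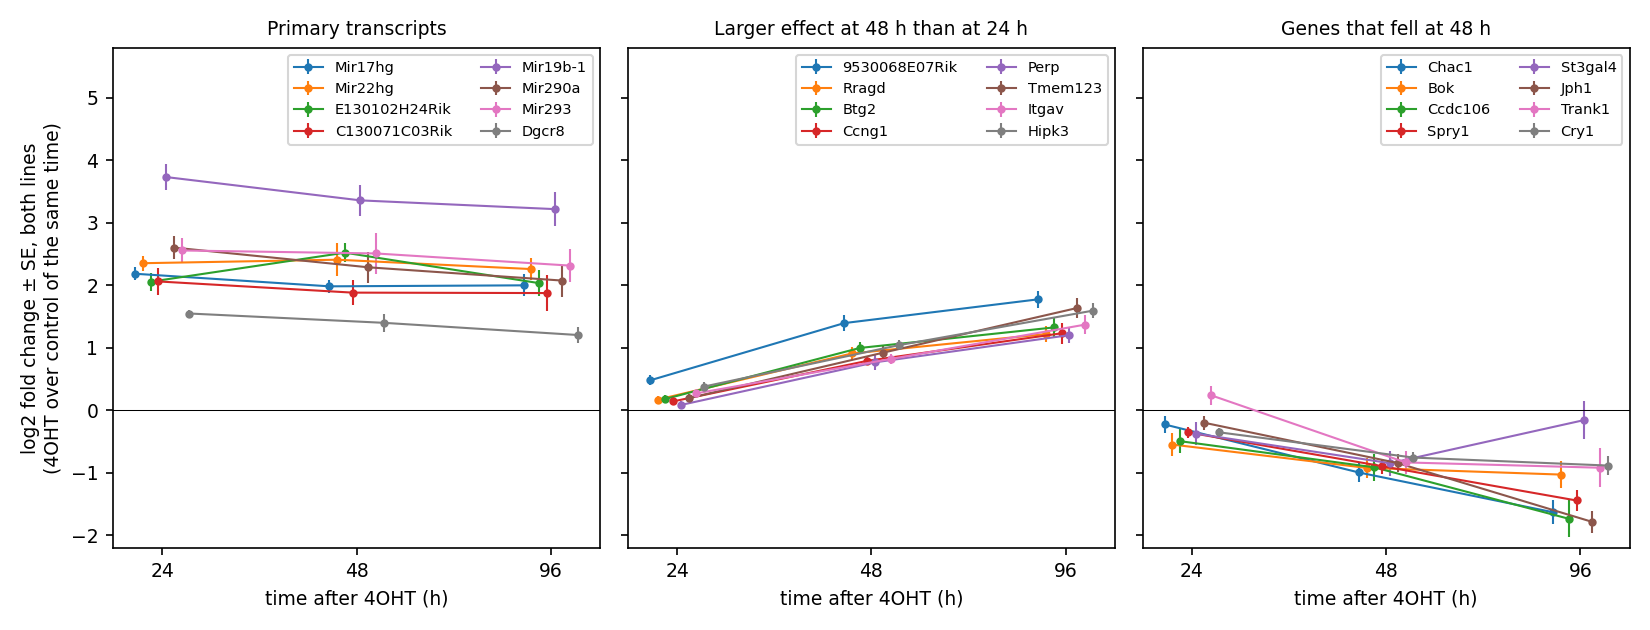
Log2 fold change (4OHT over the control of the same time, both lines, ± SE of the fit) at 24, 48 and 96 h on a spaced, unscaled time axis, for primary transcripts and Dgcr8 (left), the 8 genes with the smallest p in the test of 48 h against 24 h (middle) and 8 of the falling genes (right). Mir17hg is level at 2.18, 1.98 and 2.00, while Btg2 stands at 0.18, 1.00 and 1.33 and Chac1 at -0.23, -0.99 and -1.63.

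Falling genes had the same order in part: Chac1 stood at -0.23, -0.99 and -1.63 at 24, 48 and 96 h, Spry1 at -0.35, -0.89 and -1.44, and the ATF4 list had medians of -0.12, -0.35 and -0.72. St3gal4, at -0.37, -0.85 and -0.16, did not. Between 96 and 48 h no gene's effect passed edgeR's test of the difference (0 of 16220; 1735 at an unadjusted p under 0.05; DESeq2 called 24). Leaving out DGCR8 96 h 4OHT replicate 2 turned that count to 1054, and without the 1 Drosha 4OHT library of 96 h the difference could not be fitted.

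A larger share of the genes with long exons rose than of those with short ones. Ordered by total exon length, the quartiles of tested genes (bounds 1858, 3364 and 5360 bases) had 2.14%, 4.30%, 6.77% and 10.8% risers, and 2.17%, 3.51%, 3.12% and 1.45% fallers. The median exon length was 4989 bases among risers and 3019 among fallers, against 3364 over all tested genes. Within the most highly expressed quartile 1.64% of the shortest and 11.4% of the longest quartile rose. The median log2 fold change of all genes in a quartile was -0.085, -0.033, 0.009 and 0.055, from the shortest to the longest. Within the most highly expressed quartile it was -0.10 in the shortest and 0.02 in the longest. Longer transcripts collect more reads at a given level. The part of length in the calls and in these medians was not tested.

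**Figure D5:**
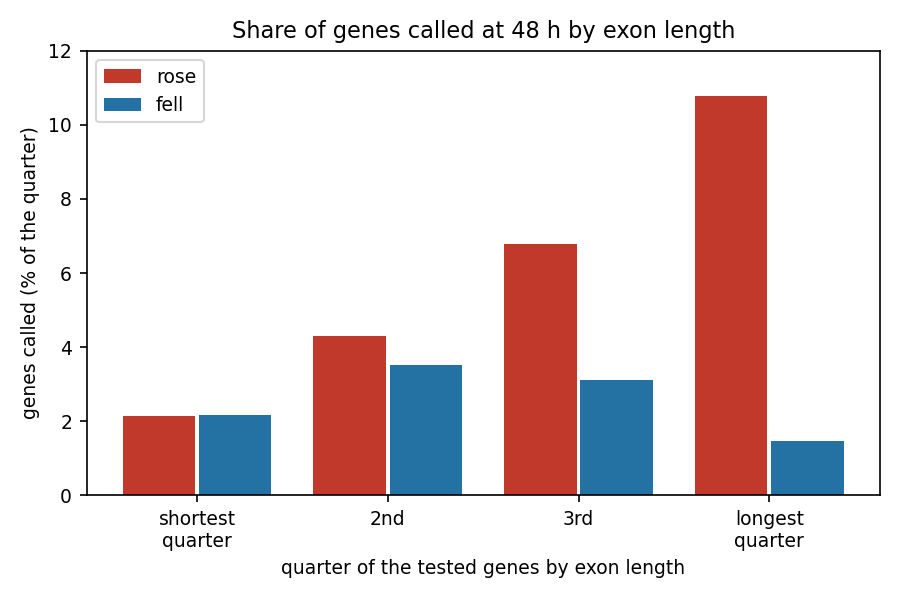
Share of tested genes that rose (red) or fell (blue) at 48 h in both lines pooled, in percent of each quartile of genes by total exon length. Risers go up from 2.14% in the shortest quartile to 10.8% in the longest, and fallers are lowest in the longest, at 1.45%.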

How the data were processed

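Gene counts were taken as the authors deposited them, as whole-number exon counts per gene with no normalization. The submitters' processing notes name Bowtie and mm10. Their versions, the annotation and the counting strand are not given in the sources used here. Of 39017 gene IDs, 37607 had a symbol.

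Counts were tested with edgeR 4.0.16 in R 4.3.3 (limma 3.58.1): TMM scaling, the default filter on low counts by group, and the quasi-likelihood F test on line plus treatment over the 8 libraries of 48 h, with Benjamini-Hochberg adjustment over all 15136 genes and a threshold of 0.05. The SE is the log2 fold change divided by the square root of F. A line by treatment term gave the effects of each line, and models over 2 times gave differences between times. Scripts were tested on simulated data. Replicates of a group were not duplicates (chi-square per gene 6.42 to 14.9).

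Named genes were Dgcr8, Drosha, the 12 with the largest change in each direction among those that passed the threshold, had a mean log2 CPM no lower than 2 and had both treated libraries beyond both controls in each line, the 4 with the smallest p in each list and the 8 with the smallest p between times. Other list members and hairpin genes were named after their values were seen. The members and lists were chosen with earlier results of these data known. The alternatives were DESeq2 1.42.0 and its size factors, no filter, a replicate block, all 23 libraries of the floxed lines, no mitochondrial genes, no line term and leaving out each library. CPM and read sums carry counting error and are printed without an interval. The SE of the fit takes in counting error through edgeR's model of counts, together with the spread between libraries. Results of a further gene list are not reported here.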

Additional observations from a re-analysis of the deposited data

Results flagged for a closer look

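Drosha was the 1 gene whose effect at 48 h differed between the lines, by 2.09 (log2, DGCR8 line minus Drosha line), and it is the gene floxed in the Drosha line. The 8 genes with the smallest p in the test between times had an effect that differed between 48 and 24 h, in each case larger at 48 h. The differences (log2, 48 minus 24 h) were 0.92 for 9530068E07Rik, 0.74 for Rragd, 0.81 for Btg2, 0.65 for Ccng1, 0.70 for Perp, 0.73 for Tmem123, 0.55 for Itgav and 0.66 for Hipk3.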

How the results depend on the processing

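The count of 1296 called genes was 1288 with DESeq2's size factors, 1734 with no filter, 1326 with DESeq2, 1359 with all 23 libraries in the fit and 1305 without mitochondrial genes; it was 27 without the line term and 543 to 1503 with 1 library left out. The 1 gene that differed between lines became 76 with no filter, 3 with DESeq2 and 1 to 17 with 1 library left out. The 28 genes that differed between 48 and 24 h became 212 with no filter, 86 with DESeq2 and 6 to 28 with 1 library left out. The 0 between 96 and 48 h became 127 with no filter, 24 with DESeq2 and 0 to 1054 with 1 library left out. The 1830 at 96 h became 4223 without DGCR8 4OHT replicate 1, 3466 in the DGCR8 line without both libraries that stood apart, and 1843 without mitochondrial genes. In the fit without DGCR8 4OHT replicate 1 each line had 1 4OHT library at 96 h. In the fit without both libraries that stood apart, the DGCR8 line alone was tested, with 1 4OHT library. The spread in both fits came from the controls alone. Their counts therefore cannot be compared with 1830, and no conclusion is drawn from them. The cause of the other changes in count was not tested. Whether replicate numbers pair the samples is not known. Same-numbered libraries had deviations correlated at 0.447 in the DGCR8 line and -0.300 in the Drosha line. With the replicate block 1125 genes were called at 48 h and 0 between 48 and 24 h. All 28 calls between those times were thus lost. The glycolysis list had 1 call with the block. Of 106 called named genes, none changed sign under any alternative, 37 lost their call with at least 1 library left out and 93 without the line term.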

Other observations

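Of 20 tested genes of glycolysis and the hypoxia response, 2 fell, against 2.56% of all genes, and the median was -0.18. The list had 1 call without DGCR8 control replicate 1, either DGCR8 4OHT replicate, either Drosha control replicate or Drosha 4OHT replicate 2; it also had 1 with DESeq2's size factors. Slc16a3, a lactate exporter, had 18.0 and 15.9 CPM with 4OHT in the DGCR8 line and 14.6 and 12.2 CPM in the Drosha line, against 27.5 and 24.5 CPM in DGCR8 controls and 22.3 and 23.2 CPM in Drosha controls (-0.69 ± 0.10, adjusted p = 0.00194). Ldha, lactate dehydrogenase, fell by 0.27 and lost its call with any of 7 libraries left out (adjusted p up to 0.153), all but DGCR8 control replicate 2. Of 19 cholesterol synthesis genes Lss fell by 0.32 and likewise lost its call without any of those 7 (up to 0.145).

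Against 6.00% and 2.56% of all genes, 3 of 15 immediate-early genes rose and 2 fell. Jun (0.46), Klf6 (0.26) and Fosb (1.10) rose, and Myc (-0.56) and Ier5 (-0.51) fell. That list had no call without DGCR8 control replicate 1 or DGCR8 4OHT replicate 2, and 1 to 3 calls without DGCR8 4OHT replicate 1, either Drosha control replicate or either Drosha 4OHT replicate.

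For the 427 tested genes in the shortest quartile of exon length and the highest of expression, the median log2 fold change was -0.10. Of 82 ribosomal protein genes 73 had a negative log2 fold change, with a median of -0.11. None was called by edgeR, 7 had an unadjusted p under 0.05, and DESeq2 called 1; without DGCR8 control replicate 2 edgeR called 4, and without DGCR8 4OHT replicate 1 or Drosha 4OHT replicate 1 it called 1.

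Of 54 tested histone genes 1 fell, Hist1h2aa (-0.49 ± 0.10), with a list median of -0.03; the list had 0 to 4 calls with 1 library left out. Of 94 snoRNA genes edgeR and DESeq2 called none, with 3 at an unadjusted p under 0.05, and edgeR called 3 without DGCR8 control replicate 2 and 1 without DGCR8 4OHT replicate 1. Of 15 mitochondrial genes neither tool called any, with 0 at an unadjusted p under 0.05. None of 8 markers of 2-cell-like cells passed the filter on low counts.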
